A study of Mus musculus with 42 samples.

Results

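The genes described here mark the principal cell of the renal collecting duct, and they are 10 of the 54532 genes in the count and FPKM tables. They were taken by name: the water channel genes Aqp2, Aqp3 and Aqp4, the vasopressin receptor gene Avpr2, the sodium channel subunit genes Scnn1a, Scnn1b and Scnn1g, and Hsd11b2, Fxyd4 and Gata3. RNA of 42 whole mouse kidneys was sequenced in 3 cohorts and 14 groups of 3 libraries, and each library is labelled as a separate replicate kidney sample. The study deleted Tsc2, whose product restrains the kinase complex mTORC1, and Tfeb, a transcription factor of lysosomal genes, singly and together. All mice were on a C57BL/6 background.

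In the CaggCreERT2 cohort a tamoxifen-inducible Cre acted in the whole body, tamoxifen reached the pups through lactation, and kidneys were taken at postnatal day 30. Its groups were control, Tsc2 KO (CaggCreERT2+; Tsc2 fl/fl), Tfeb KO (CaggCreERT2+; Tfeb fl/fl) and DKO, in which both floxed genes were deleted. The labels call the control kidneys wild type, and the study's text for the RNA-seq describes them as CaggCreERT2+; Tsc2+/+ mice that also received tamoxifen. In the KspCre cohort Cre was driven by the cadherin-16 promoter, which is active in kidney tubular epithelium, and the same 4 genotypes were examined at postnatal day 50 without treatment, the controls being Cre-negative. In the KspCre drug cohort control, Tsc2 KO and DKO mice received 11 intraperitoneal injections of rapamycin at 1 mg/kg, or of vehicle, from postnatal day 25, and kidneys were taken at postnatal day 50. Kidneys of KspCre mice contain endothelial, immune and stromal cells in which both genes are intact, and no library is of sorted principal cells. Fewer cells of a type and less RNA per cell cannot be told apart in such libraries.

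Principal cells return water and sodium from the tubule fluid to the blood and secrete potassium. Vasopressin binds the receptor encoded by Avpr2 on the blood side and, through cyclic AMP, moves the water channel aquaporin-2 into the luminal membrane, while aquaporin-3 and aquaporin-4 let the water leave the cell on the other side. Aldosterone acts through the mineralocorticoid receptor on the epithelial sodium channel ENaC, and the enzyme encoded by Hsd11b2 keeps cortisol-like steroids away from that receptor.

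The sequence before the start of 4 of these genes is shown because Aqp2, Aqp3 and Fxyd4 fell and Scnn1b did not fall in the Tsc2 KO kidneys described below. RefSeq gives windows for the mouse build GRCm38.p6, and the 250 bases before the RefSeq start were read for 7 of the 10 genes. Windows of Aqp4, Scnn1a and Hsd11b2 were not used here. The windows lie at chr15:99578806-99579055 on the plus strand for Aqp2, chr4:41098184-41098433 on the minus strand for Aqp3, chr6:117937336-117937585 on the minus strand for Fxyd4 and chr7:121864788-121865037 on the plus strand for Scnn1b. The Fxyd4 window lies inside the interval given for that gene below, since the RefSeq start is downstream of the outermost start in the other annotation. Capitals mark matches to any of 5 motifs, which were searched on both strands and which do not overlap where they were found.
Aqp2: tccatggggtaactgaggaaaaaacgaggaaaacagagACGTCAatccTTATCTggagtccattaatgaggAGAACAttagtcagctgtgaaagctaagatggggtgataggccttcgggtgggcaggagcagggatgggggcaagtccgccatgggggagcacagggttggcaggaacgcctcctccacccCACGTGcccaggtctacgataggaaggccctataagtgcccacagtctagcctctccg
Aqp3: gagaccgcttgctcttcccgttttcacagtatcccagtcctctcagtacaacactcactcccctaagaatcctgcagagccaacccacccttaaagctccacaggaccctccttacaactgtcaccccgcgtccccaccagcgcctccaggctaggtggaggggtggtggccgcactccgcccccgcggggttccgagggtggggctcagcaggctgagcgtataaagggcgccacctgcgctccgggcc
Fxyd4: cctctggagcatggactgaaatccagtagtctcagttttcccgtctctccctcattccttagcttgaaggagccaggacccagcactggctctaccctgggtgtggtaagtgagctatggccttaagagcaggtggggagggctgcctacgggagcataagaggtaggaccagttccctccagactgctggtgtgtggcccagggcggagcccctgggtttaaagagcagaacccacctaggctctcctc
Scnn1b: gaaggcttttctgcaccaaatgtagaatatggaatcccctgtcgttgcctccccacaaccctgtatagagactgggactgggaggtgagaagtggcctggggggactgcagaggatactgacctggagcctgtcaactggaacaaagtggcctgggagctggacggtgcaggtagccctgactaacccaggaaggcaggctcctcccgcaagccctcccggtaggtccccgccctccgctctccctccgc

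The motifs were the GATA motifs AGATAA and TGATAA, the cyclic AMP response core TGACGT, the E-box CACGTG that forms the core of the CLEAR element bound by TFEB, and the steroid receptor motif AGAACA. The Aqp2 window held AGATAA, as TTATCT on the printed strand, at position -202 from the start, TGACGT, as ACGTCA, at -212, AGAACA at -179 and CACGTG at -58. The windows of Aqp3, Fxyd4 and Scnn1b held no match to the 5 motifs. Among 32851 promoter windows of the same length, AGATAA was present in 9.99%, TGATAA in 7.94%, TGACGT in 6.47%, CACGTG in 6.02% and AGAACA in 16.1%. These are matches of letters, and no binding was measured.

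Depth lay between 14926050 and 22807605 counts on genes per library, with a median of 17802376. Tsc2, the targeted gene, was at 10.3 ± 0.445 FPKM (SD, n = 3) in the CaggCreERT2 controls and 4.25 ± 0.264 in Tsc2 KO, at 8.93 ± 0.289 and 3.91 ± 0.419 in the KspCre cohort, and at 9.35 ± 0.662 and 4.06 ± 0.357 in the vehicle groups of the drug cohort. FPKM, the deposited level, is a read count corrected for gene length and sequencing depth. For 4 of the 12 CaggCreERT2 libraries, all Tfeb KO or DKO, the count and FPKM tables give different names to the same values, and the grouping here follows the FPKM table. With it Tsc2 was at 5.24 ± 0.407 FPKM in DKO and 9.54 ± 0.618 in Tfeb KO. By Xist, the controls of that cohort were male, its Tfeb KO kidneys were female, and Tsc2 KO and DKO were mixed. The summed FPKM of 6 adrenal cortex genes was above 10 in 6 libraries: 1361 and 51.6 in vehicle-treated Tsc2 KO 1 and 2, 307 and 4299 in vehicle-treated DKO 1 and 2, and 273 and 34 in CaggCreERT2 Tfeb KO 1 and 2. Members called in the drug cohort from any of its 4 such libraries were also tested without them, which left 1 vehicle-treated Tsc2 KO and 1 vehicle-treated DKO library, assumed to vary like the other groups. KspCre DKO 1 also stood apart, with 685 FPKM summed over 8 macrophage genes against 64.4 and 86.7 in the others of its group, 38.7 over 8 T lymphocyte genes against 2.49 and 2.45, and Krt5, a basal epithelial keratin gene, at 52.0 against 7.12 and 0.937.

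In control kidneys the levels of these genes spanned a wide range, with Aqp2 highest. In the CaggCreERT2 controls Aqp2 was at 402 ± 54.5 FPKM (SD, n = 3), Hsd11b2 at 225 ± 13.2 and Aqp3 at 112 ± 17.1, and no libraries of these 3 genes overlapped. Scnn1a at 46.7 ± 6.76, Scnn1b at 43.6 ± 3.35, Fxyd4 at 37.8 ± 7.44 and Scnn1g at 32.9 ± 3.37 followed, and each overlapped its neighbour in that order. Aqp4 at 9.27 ± 1.55 and Gata3 at 7.9 ± 1.38 FPKM overlapped each other and lay below all of these. The untreated KspCre controls had the same first 4 genes in that order, with Aqp2 at 369.6 ± 179.9 and Hsd11b2 at 166 ± 12.5 FPKM, while Scnn1b, Scnn1g, Fxyd4 and Aqp4 lay between 20.7 and 25.4 on average and overlapped. In vehicle-treated controls Aqp2 was at 170.1 ± 23.5 and Gata3 at 4.85 ± 0.424 FPKM. The cohorts were processed separately, so levels were not compared between them by a test.

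Avpr2 (X:73892102-73895502, plus strand, mm10), the gene of the vasopressin V2 receptor, was close to absent from the tables. It had 0 to 7 counts per library and at most 0.109 FPKM, was below the filter on low counts in every cohort, and entered no test. In the GENCODE M21 annotation 81.3% of its 2886 exonic bases overlap Arhgap4, a gene on the opposite strand, and the libraries do not keep strand. Whether that overlap lowered the count was not tested. The 9 other genes passed the filter in all 3 cohorts and reached the minimum of 5 FPKM used for a call in each comparison. A call needed an adjusted p of 0.05 or lower (edgeR quasi-likelihood test, Benjamini-Hochberg over all tested genes) and that minimum.

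**Figure D1:**
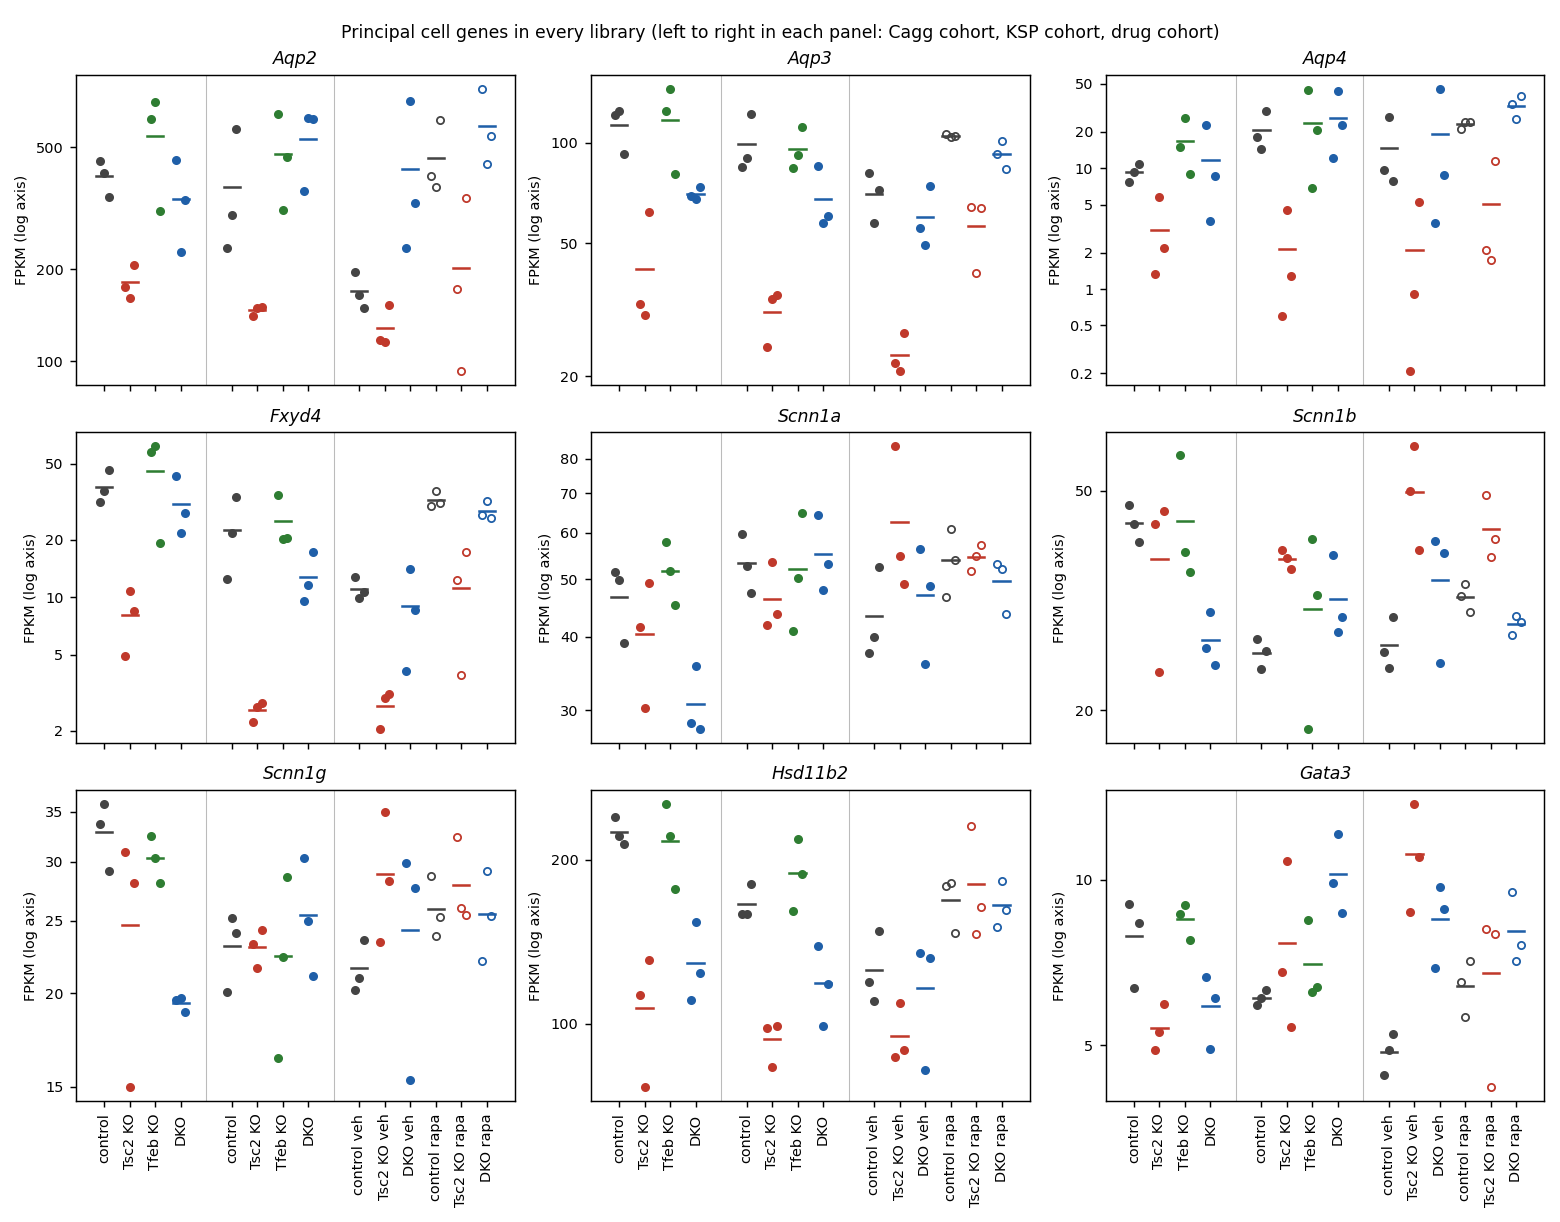
Deposited FPKM (log axis) of each principal cell gene in every library, by cohort and group. Filled points are untreated or vehicle-treated kidneys and open points rapamycin-treated kidneys. The Aqp3 and Fxyd4 points of Tsc2 KO kidneys without rapamycin lie below those of their controls in each of the 3 cohorts.

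Loss of Tsc2 was first compared with control in the kidneys of each cohort. Aqp3 and Fxyd4 fell in all 3 cohorts, Aqp2 and Hsd11b2 fell in both untreated cohorts, and no ENaC subunit fell in any cohort. In the CaggCreERT2 cohort 5 of the 9 tested genes fell and 0 rose, beside 15.5% of the 8090 genes reaching the FPKM minimum that fell and 23.0% that rose. Among KspCre kidneys 5 of 9 fell and 0 rose, beside 8.74% and 9.42% of 7736 genes. In the vehicle groups of the drug cohort 3 of 9 fell and 3 rose, beside 24.6% and 23.8% of 8098 genes. The median log2 fold change over the 9 genes was -1.01, -0.83 and -0.40 in the 3 cohorts, and over all tested genes it was 0.00, -0.01 and 0.01.

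Among the water channels, Aqp3 (4:41092722-41098183, minus strand), the basolateral channel that also carries glycerol, fell in all 3 cohorts. It was at 121, 124 and 92.7 FPKM in the CaggCreERT2 controls and at 32.8, 30.4 and 62.0 in Tsc2 KO. The KspCre kidneys had 84.3, 90.2 and 122 in control and 24.4, 34.1 and 35.0 in Tsc2 KO, and the vehicle groups 81.1, 57.3 and 71.9 against 21.9, 20.7 and 27.0. Every Tsc2 KO kidney lay below every control of its cohort, although the third CaggCreERT2 Tsc2 KO kidney stood above the others of its group. The log2 fold change was -1.37 (SE 0.25, adjusted p = 0.00185), -1.67 (SE 0.21, adjusted p = 0.000604) and -1.60 (SE 0.19, adjusted p = 7.90e-06), which is a level 2.58-fold, 3.18-fold and 3.02-fold lower. Without the 4 libraries with adrenal cortex RNA the last value was -1.39 (adjusted p = 0.00295).

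Aqp2 (15:99579055-99584547, plus strand), the vasopressin-regulated luminal channel, fell in the untreated cohorts. The CaggCreERT2 controls were at 452, 411 and 344 FPKM and Tsc2 KO at 175, 161 and 207, and the KspCre controls were at 235, 300.1 and 574 and Tsc2 KO at 141, 149.7 and 150.4. The groups did not overlap, and the Tsc2 KO kidneys were far closer to each other than the KspCre controls were. Aqp2 had log2 fold changes of -1.09 (SE 0.28, adjusted p = 0.0118) and -1.34 (SE 0.35, adjusted p = 0.0256). The KspCre call was lost without control 3 (-0.85, adjusted p = 0.107), which had the highest level, and without Tsc2 KO 1 (-1.31, adjusted p = 0.0896), 2 (-1.35, adjusted p = 0.0747) or 3 (-1.35, adjusted p = 0.0711). In the drug cohort vehicle controls at 196, 165 and 149 FPKM overlapped Tsc2 KO at 117, 116 and 153, and the log2 fold change of -0.40 (SE 0.41, adjusted p = 0.472) was not called, nor was it without the 4 libraries with adrenal cortex RNA (-0.17, adjusted p = 0.864).

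Aqp4, a basolateral water channel, varied widely between kidneys of a group. It was at 7.7, 9.31 and 10.8 FPKM in the CaggCreERT2 controls against 1.32, 5.72 and 2.17 in Tsc2 KO, at 18.1, 14.3 and 29.6 against 0.603, 4.54 and 1.29 in the KspCre cohort, and at 9.71, 26.5 and 7.8 against 0.209, 0.901 and 5.23 with vehicle. Each Tsc2 KO kidney was below each control of its cohort. The log2 fold change was -1.54 (SE 0.63, adjusted p = 0.0836) in the CaggCreERT2 cohort, where it was not called, and Aqp4 fell by 3.28 (SE 0.81, adjusted p = 0.02) and 2.80 (SE 1.01, adjusted p = 0.0386) on the log2 scale in the others. Among KspCre kidneys the call was lost without control 3 (-2.91, adjusted p = 0.0582), Tsc2 KO 1 (-2.83, adjusted p = 0.0697) or Tsc2 KO 3 (-3.01, adjusted p = 0.0769). In the drug cohort it was lost without vehicle control 2 (-2.05, adjusted p = 0.152), Tsc2 KO 1 (-2.26, adjusted p = 0.109) or Tsc2 KO 2 (-2.41, adjusted p = 0.133), and without the 4 libraries with adrenal cortex RNA (-1.51, adjusted p = 0.304).

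Fxyd4 (6:117933559-117937692, minus strand), a small membrane protein that modulates the sodium pump in the collecting duct, showed log2 fold changes between -3.14 and -2.03. It was at 31.6, 35.7 and 46.0 FPKM in the CaggCreERT2 controls and at 4.89, 10.7 and 8.45 in Tsc2 KO. The KspCre controls were at 12.4, 21.7 and 33.4 and Tsc2 KO at 2.21, 2.67 and 2.78, and with vehicle the levels were 12.7, 9.9 and 10.6 against 2.04, 2.95 and 3.11. No Tsc2 KO kidney reached a control of its cohort. In the KspCre and drug cohorts the FPKM minimum was reached through the controls alone, with Tsc2 KO at 2.55 and 2.7 on average. With 5 FPKM required in every library Fxyd4 was called in none of the 3 cohorts. The level was 4.55-fold lower (log2 fold change -2.19, SE 0.41, adjusted p = 0.00193), 8.84-fold lower (-3.14, SE 0.37, adjusted p = 0.000451) and 4.09-fold lower (-2.03, SE 0.43, adjusted p = 0.00151). The last was -1.84 (adjusted p = 0.0428) without the 4 libraries with adrenal cortex RNA.

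The ENaC subunits come next. Scnn1b (7:121865038-121918514, plus strand), the beta subunit, was at 47.1, 43.5 and 40.4 FPKM in the CaggCreERT2 controls and 43.5, 23.5 and 45.9 in Tsc2 KO, which overlapped. KspCre controls were at 26.9, 23.8 and 25.6 and Tsc2 KO at 39.0, 37.7 and 36.0, and with vehicle the levels were 25.5, 23.9 and 29.5 against 49.9, 60.1 and 39.1. In both KspCre comparisons each Tsc2 KO kidney was above each control. Scnn1b had log2 fold changes of -0.15 (SE 0.23, adjusted p = 0.663), 0.56 (SE 0.23, adjusted p = 0.133) and 0.92 (SE 0.18, adjusted p = 0.000712), so it rose by the test in the drug cohort, where the call also held without the 4 libraries with adrenal cortex RNA (0.56, adjusted p = 0.0287).

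Scnn1a (6:125320659-125344943, plus strand), the alpha subunit, was at 37.5, 40.0 and 52.4 FPKM in vehicle controls and 84.0, 54.7 and 49.1 in vehicle-treated Tsc2 KO, and these overlapped. It rose by 0.53 on the log2 scale (SE 0.20, adjusted p = 0.045), a call that was lost without Tsc2 KO 1 (0.26, adjusted p = 0.295), control 1 (0.43, adjusted p = 0.15) or control 2 (0.48, adjusted p = 0.129), and without the 4 libraries with adrenal cortex RNA (0.17, adjusted p = 0.617). The Tsc2 KO kidney with the highest Scnn1a was also the one of its group with the most adrenal cortex RNA, and the part of that RNA in the value was not tested. In the untreated cohorts the log2 fold change of Scnn1a was -0.15 (SE 0.17, adjusted p = 0.56) and -0.20 (SE 0.18, adjusted p = 0.524). Scnn1g (7:121734479-121768475, plus strand), the gamma subunit, was not called in any Tsc2 KO comparison, with log2 fold changes of -0.35 (SE 0.20), -0.01 (SE 0.19) and 0.42 (SE 0.21) and adjusted p of 0.21, 0.98 and 0.12, the last being 0.189 without the 4 libraries (0.37).

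Hsd11b2 (8:105518755-105523988, plus strand), the enzyme that protects the mineralocorticoid receptor, was at 239.5, 221 and 214 FPKM in the CaggCreERT2 controls and 113, 76.5 and 131 in Tsc2 KO. The KspCre controls were at 159, 159 and 180.4 and Tsc2 KO at 98.3, 83.1 and 99.1. In neither cohort did the groups overlap, and Hsd11b2 fell by 1.01 (SE 0.19, adjusted p = 0.00208) and 0.83 (SE 0.16, adjusted p = 0.00504) on the log2 scale. With vehicle it was at 119, 110.0 and 148 in control and 86.8, 109 and 89.3 in Tsc2 KO, which did not overlap but lay close together, and the log2 fold change of -0.40 (SE 0.20, adjusted p = 0.122) was not called, nor was it without the 4 libraries with adrenal cortex RNA (-0.50, adjusted p = 0.19).

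Gata3 (2:9857078-9890034, minus strand), a zinc finger transcription factor of the collecting duct lineage, went in opposite directions in 2 cohorts. It was at 9.02, 6.36 and 8.32 FPKM in the CaggCreERT2 controls and 4.91, 5.29 and 5.93 in Tsc2 KO, but with vehicle in the drug cohort at 4.41, 4.89 and 5.25 in control and 8.73, 13.7 and 11.0 in Tsc2 KO. Each Tsc2 KO kidney was below each control in the former cohort and above in the latter. Gata3 fell by 0.49 on the log2 scale in the former (SE 0.15, adjusted p = 0.0252) and rose by 1.20 in the latter (SE 0.22, adjusted p = 0.000497). In the latter the FPKM minimum was reached through Tsc2 KO alone, with vehicle controls at 4.85 on average. With 5 FPKM required in every library Gata3 was called in neither. The first call was lost without control 1 (-0.40, adjusted p = 0.107), control 3 (-0.45, adjusted p = 0.0857), Tsc2 KO 1 (-0.44, adjusted p = 0.0941) or Tsc2 KO 2 (-0.48, adjusted p = 0.0662), with Xist as a covariate (-0.53, adjusted p = 0.0782) and with the names of the count table (-0.49, adjusted p = 0.0871), whereas the second held when any 1 library was left out and without the 4 libraries with adrenal cortex RNA (1.17, adjusted p = 0.0128). In the untreated KspCre cohort controls at 5.91, 6.08 and 6.31 FPKM overlapped Tsc2 KO at 6.78, 10.8 and 5.4, with a log2 fold change of 0.33 (SE 0.23, adjusted p = 0.403), and of -0.01 (adjusted p = 0.992) without Tsc2 KO 2. Gata3 is also expressed by urothelium, and the Tsc2 KO 2 kidney, with the highest Gata3, had 68.3 FPKM summed over 7 urothelium genes against 0.711 and 0.785 in the others of its group and 39.6 to 79.9 in control. In the other 2 cohorts these sums overlapped, at 17.2 to 35.1 in control and 7.34 to 80.9 in Tsc2 KO of the CaggCreERT2 cohort and at 2.4 to 77.7 and 1.5 to 61.0 with vehicle. None of the 7 genes was called in the 3 comparisons (0, 0 and 0, with 3, 5 and 5 reaching the FPKM minimum), and the part of urothelium in the Gata3 level was not tested. Of its exonic bases, 5.83% are shared with 9230102O04Rik and with the antisense gene Gm13256.

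**Figure D2:**
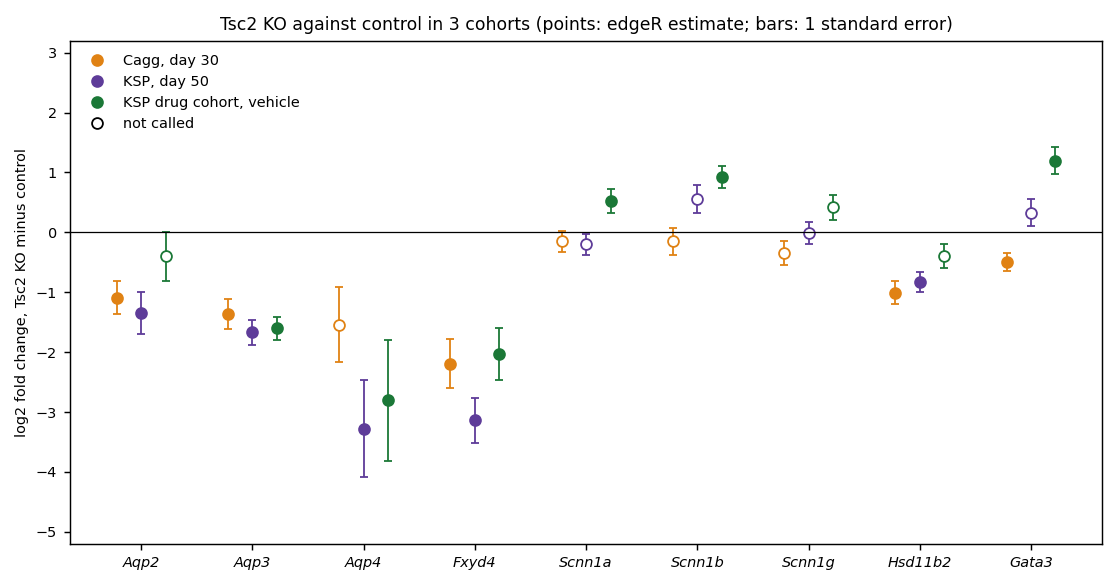
Log2 fold change of each tested principal cell gene in Tsc2 KO against control in the 3 cohorts, with the standard error as bars, from edgeR. Filled points were called and open points were not. Fxyd4, Aqp4 and Aqp3 lie at the lower end in each cohort, while the ENaC subunits lie near or above 0 in the KspCre cohorts.

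The ratio of Aqp3 to Scnn1b within a library shows this contrast without comparison of library sizes. The pair was chosen after the values were seen, and no test was made. The ratio of FPKM was 2.3 to 2.84 in the CaggCreERT2 controls and 0.754 to 1.35 in Tsc2 KO, 3.13 to 4.75 and 0.624 to 0.974 in the KspCre cohort, and 2.4 to 3.19 and 0.344 to 0.691 with vehicle. No Tsc2 KO ratio overlapped its controls. In DKO the ratio was 2.25 to 3.04, 2.05 to 2.23 and, with vehicle, 1.38 to 2.03. For Fxyd4 against Gata3 the medians of the same 3 pairs of control and Tsc2 KO groups were 5.53 and 1.43, 3.57 and 0.326, and 2.03 and 0.234. In DKO this ratio was 4.41 to 6.49, 0.95 to 1.98 and, with vehicle, 0.59 to 1.45. It overlapped control in the CaggCreERT2 cohort and lay below the controls of both KspCre cohorts, at 2.1 to 5.3 and 2.02 to 2.89.

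**Figure D3:**
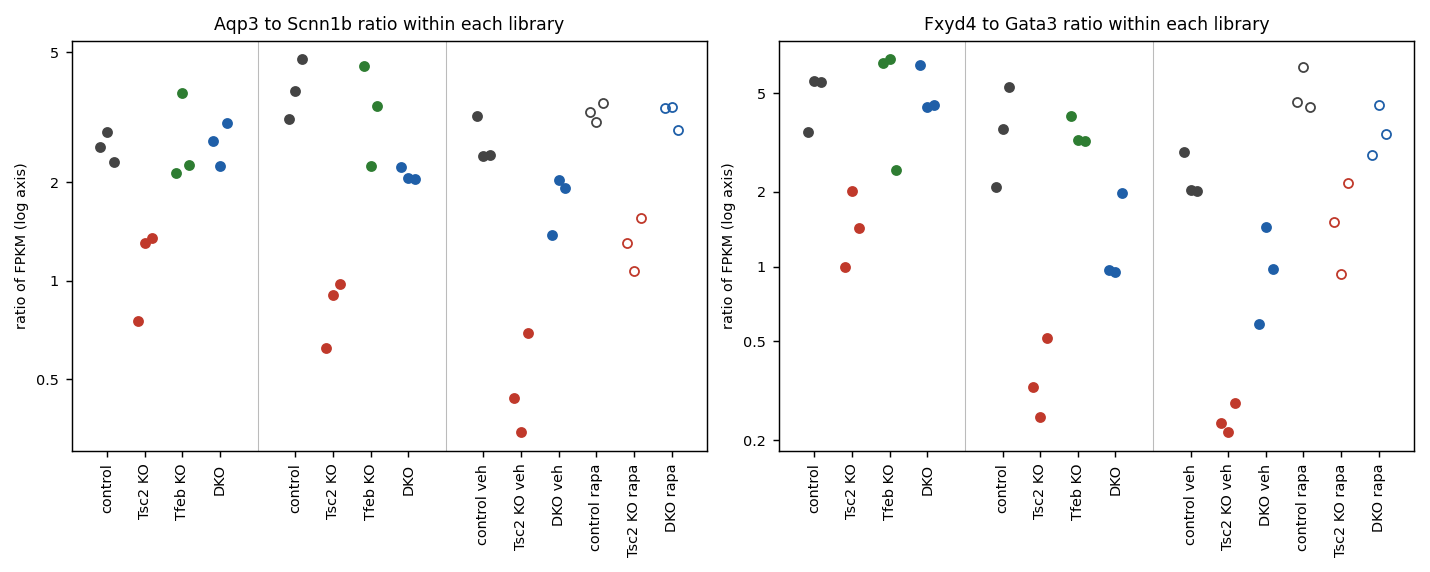
Ratio of FPKM within each library (log axis) for Aqp3 to Scnn1b and for Fxyd4 to Gata3, by group, with the CaggCreERT2, KspCre and drug cohorts from left to right. Filled points are untreated or vehicle-treated kidneys and open points rapamycin-treated kidneys. Tsc2 KO kidneys without rapamycin lie below their controls in all 3 cohorts for both ratios.

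Loss of Tfeb alone was compared with control in both untreated cohorts. In the CaggCreERT2 cohort the controls were male and the Tfeb KO kidneys female by Xist, so genotype and sex cannot be told apart there. Tfeb itself was at 5.96 ± 1.81 FPKM (SD, n = 3) in the CaggCreERT2 controls and 3.37 ± 0.552 in Tfeb KO, and at 6.05 ± 0.196 and 4.79 ± 0.463 in the KspCre cohort. Its log2 fold change was -0.80 (SE 0.23, adjusted p = 0.394) and -0.33 (SE 0.20, adjusted p = 0.627), and neither was called. No member was called: 0 of 9 in the CaggCreERT2 cohort, beside 0.0128% of 7803 genes in each direction, and 0 of 9 in the KspCre cohort, beside 0% of 7476. By edgeR no member had an unadjusted p below 0.05 in either (0 and 0), beside 7.78% and 11.2% of all genes reaching the minimum, and DESeq2 also called 0 in both, beside 0.705% and 0.107%. Aqp2 was at 617, 703 and 310.3 FPKM in CaggCreERT2 Tfeb KO and 643, 313 and 465 in KspCre Tfeb KO, and both groups overlapped their controls. The log2 fold changes of the 9 genes lay between -0.09 for Scnn1g and 0.86 for Aqp4 in the CaggCreERT2 cohort and between -0.05 for Aqp3 and 0.36 for Aqp2 in the KspCre cohort, with standard errors up to 0.60 and 0.73 for Aqp4. Without the 2 CaggCreERT2 Tfeb KO libraries with adrenal cortex RNA, which left 1 library assumed to vary like the other groups, 0 were called, beside 0.0126% of all genes. The log2 fold changes of all 9 genes were then below 0, from -0.97 for Fxyd4 to -0.01 for Gata3, with Aqp2 at -0.36, Aqp3 at -0.46 and Aqp4 at -0.03, so 7 of the 9 turned in direction.

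The DKO was then compared with Tsc2 KO, which asks what further loss of Tfeb changed in kidneys without Tsc2. Fxyd4 rose in all 3 cohorts, the aquaporin genes rose by the test in the drug cohort, and Gata3 was called in none of the 3. Of the 9 genes, 1 rose and 0 fell in the CaggCreERT2 cohort (beside 6.91% of 7906 genes that rose and 7.56% that fell), 1 rose and 0 fell in the KspCre cohort (beside 0.117% and 0.169% of 7700), and 4 rose and 1 fell with vehicle (beside 16.9% and 12.6% of 7950). Slc14a2, a urea transporter gene of the medulla, was also higher in both untreated cohorts. It was at 22, 23.7 and 36.8 FPKM in CaggCreERT2 DKO against 1.32, 3 and 1.68 in Tsc2 KO. The KspCre values were 13.5, 55.7 and 51.2 against 0.0342, 7.39 and 0.199. With vehicle, 1.21, 28.4 and 3.45 overlapped 0.0158, 1.14 and 4.67. Vehicle-treated DKO 2, at 28.4, also had the highest Aqp2, Aqp4 and Fxyd4 of its group. The part of medulla in these levels was not tested.

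Fxyd4 was at 43.1, 21.7 and 27.4 FPKM in CaggCreERT2 DKO, at 9.59, 11.5 and 17.2 in KspCre DKO and at 4.08, 14.1 and 8.61 in vehicle-treated DKO. These lay above every Tsc2 KO kidney of the same cohort. Against Tsc2 KO its log2 fold change was 1.93 (SE 0.41, adjusted p = 0.0131), 2.32 (SE 0.37, adjusted p = 0.0355) and 1.72 (SE 0.43, adjusted p = 0.00883). In the KspCre and drug cohorts the FPKM minimum was reached through DKO alone, with Tsc2 KO at 2.55 and 2.7 on average. With 5 FPKM required in every library Fxyd4 was called in none of these comparisons. The first call was lost without Tsc2 KO 1 (1.67, adjusted p = 0.0623). The second was lost without Tsc2 KO 1 (2.23, adjusted p = 0.219), Tsc2 KO 2 (2.35, adjusted p = 0.0791), Tsc2 KO 3 (2.39, adjusted p = 0.106), DKO 2 (2.39, adjusted p = 0.0542) or DKO 3 (2.04, adjusted p = 0.0971). Without KspCre DKO 1, the library with macrophage and T lymphocyte RNA, the second was 2.49 (adjusted p = 0.0377). The third was lost without DKO 2 (1.23, adjusted p = 0.0525) and without the 4 libraries with adrenal cortex RNA (1.47, adjusted p = 0.321).

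Aqp3 was at 69.3, 67.9 and 73.5 FPKM in CaggCreERT2 DKO, 85.2, 57.3 and 60.4 in KspCre DKO and 55.7, 49.5 and 73.9 in vehicle-treated DKO. All 9 DKO kidneys were above the Tsc2 KO kidneys of their cohort, and those of the CaggCreERT2 cohort were below its controls. Against Tsc2 KO the log2 fold change was 0.73 (SE 0.25, adjusted p = 0.088), 1.12 (SE 0.21, adjusted p = 0.0583) and 1.36 (SE 0.19, adjusted p = 0.000103), so the drug cohort alone passed the test, and it did so also without the 4 libraries with adrenal cortex RNA (1.45, adjusted p = 0.0246). Aqp2 was at 455, 228 and 335 FPKM in CaggCreERT2 DKO, 359, 622 and 618 in KspCre DKO and 235, 708 and 328 in vehicle-treated DKO. Each was above the Tsc2 KO kidneys of its cohort. The log2 fold change of Aqp2 was 0.88 (SE 0.28, adjusted p = 0.0652), 1.86 (SE 0.35, adjusted p = 0.0598) and 1.71 (SE 0.42, adjusted p = 0.00808), the last being lost without DKO 2 (1.12, adjusted p = 0.0531) and without the 4 libraries (1.11, adjusted p = 0.506). KspCre DKO 1 had the highest Aqp3 and the lowest Aqp2, Aqp4 and Fxyd4 of its group. Without it the KspCre values were 0.92 (adjusted p = 0.109) for Aqp3, 2.08 (adjusted p = 0.0578) for Aqp2 and 3.96 (adjusted p = 0.104) for Aqp4, and its part in these levels was not tested.

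Aqp4 was at 22.6, 3.66 and 8.55 FPKM in CaggCreERT2 DKO, 12.1, 43.5 and 22.7 in KspCre DKO and 3.54, 45.5 and 8.86 in vehicle-treated DKO, a spread that overlapped Tsc2 KO in the CaggCreERT2 and drug cohorts. Its log2 fold change was 1.91 (SE 0.63, adjusted p = 0.076), 3.61 (SE 0.82, adjusted p = 0.103) and 3.19 (SE 1.03, adjusted p = 0.0356). In the last, the FPKM minimum was reached through DKO alone, with Tsc2 KO at 2.11 on average. With 5 FPKM required in every library Aqp4 was not called there. The call in the drug cohort was lost without DKO 2 (1.55, adjusted p = 0.264), Tsc2 KO 1 (2.65, adjusted p = 0.101), Tsc2 KO 2 (2.80, adjusted p = 0.13) or the 4 libraries (0.76, adjusted p = 0.85). Scnn1b fell with vehicle, from 49.9, 60.1 and 39.1 FPKM in Tsc2 KO to 40.5, 24.4 and 38.5 in DKO, and the groups overlapped. This was a log2 fold change of -0.53 (SE 0.18, adjusted p = 0.0426). It was not called without Tsc2 KO 1 (-0.53, adjusted p = 0.0872), Tsc2 KO 2 (-0.38, adjusted p = 0.185), DKO 2 (-0.34, adjusted p = 0.14), DKO 3 (-0.61, adjusted p = 0.0528) or the 4 libraries (-0.02, adjusted p = 0.994). The other members were not called in any of the 3 comparisons. The log2 fold change was 0.25, 0.35 and 0.29 for Hsd11b2, -0.42, 0.25 and -0.41 for Scnn1a, -0.37, 0.15 and -0.25 for Scnn1g, 0.11, 0.42 and -0.40 for Gata3, and -0.52 and -0.24 for Scnn1b in the untreated cohorts.

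The DKO was also compared with control. Hsd11b2 was at 110.4, 154 and 124 FPKM in CaggCreERT2 DKO and Scnn1g at 19.6, 19.7 and 18.9, each below every control. Hsd11b2 fell by 0.76 (SE 0.19, adjusted p = 0.0245) and Scnn1g by 0.72 (SE 0.20, adjusted p = 0.0395) on the log2 scale, 2 of 9 genes beside 4.73% of 7950 that fell and 10.2% that rose. The 7 others lay between -0.67 for Scnn1b and 0.37 for Aqp4. DESeq2 called 4 of 9 in this comparison, beside 19.5% of all genes. With the names of the count table the log2 fold changes of Hsd11b2 and Scnn1g were -0.53 (adjusted p = 0.577) and -0.52 (adjusted p = 0.567). Those names put in DKO a library that the FPKM table calls Tfeb KO. By the FPKM names Tsc2 was at 9.05 to 10.2 FPKM in Tfeb KO and 4.82 to 5.64 in DKO. Leaving out any 1 of the 6 libraries ended the Scnn1g call (log2 fold changes from -0.80 to -0.66) and any but DKO 2 ended that of Hsd11b2 (from -0.79 to -0.66). Among KspCre DKO kidneys 0 of 9 were called by edgeR, beside 2.33% of 7689 genes that rose and 1.56% that fell. Of the 9 genes, 4 had an unadjusted p below 0.05, beside 23.3% of the same 7689, and DESeq2 called 2, beside 10.4%. Over the 9 genes the log2 fold change lay between -0.82 for Fxyd4 and 0.75 for Gata3, and without DKO 1 between -0.75 for Aqp3 and 0.77 for Gata3. With vehicle in the drug cohort, Gata3 at 6.91, 9.71 and 8.84 FPKM in DKO was above every control and rose by 0.81 (SE 0.22, adjusted p = 0.042), 1 of 9 beside 5.37% of 7735. This call was lost without any 1 of the 3 controls (0.74 to 0.86), DKO 2 (0.71) or DKO 3 (0.77). It was also lost with 5 FPKM required in every library and without the libraries with adrenal cortex RNA (0.86). The 8 others lay between -0.31 for Fxyd4 and 1.31 for Aqp2, and without the libraries with adrenal cortex RNA between -0.74 for Aqp4 and 0.94 for Aqp2.

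Whether the effect of Tfeb loss differed with and without Tsc2 was tested as an interaction in the untreated cohorts. In the CaggCreERT2 cohort, Tfeb loss with Tsc2 intact set female Tfeb KO against male control kidneys, so genotype and sex cannot be told apart in it. No member passed: 0 of 9 in the CaggCreERT2 cohort, beside 1.63% of 8341 genes higher and 0.504% lower. An unadjusted p below 0.05 was found for 2 members, beside 21.0% of the 8341, and DESeq2 called 0, beside 7.90%. In the KspCre cohort it was 0 of 9 beside 0% of 8125, with 4 members at an unadjusted p below 0.05, beside 11.4%, and 2 called by DESeq2, beside 1.06%. Fxyd4 had interaction terms of 1.63 (SE 0.56, adjusted p = 0.171) and 2.17 (SE 0.49, adjusted p = 0.329), and Aqp3 of 0.65 (SE 0.35, adjusted p = 0.399) and 1.17 (SE 0.29, adjusted p = 0.329). Over the 9 genes the terms went from -0.59 for Scnn1a to 1.63 for Fxyd4 and from -0.50 for Scnn1b to 3.40 for Aqp4. Without the 2 CaggCreERT2 Tfeb KO libraries with adrenal cortex RNA, Fxyd4 had 2.89 (adjusted p = 0.0642), Aqp3 1.18 (adjusted p = 0.205), Aqp2 1.23 (adjusted p = 0.17) against 0.43 with them, and 0 of 9 were called, beside 0.640% of all genes.

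**Figure D4:**
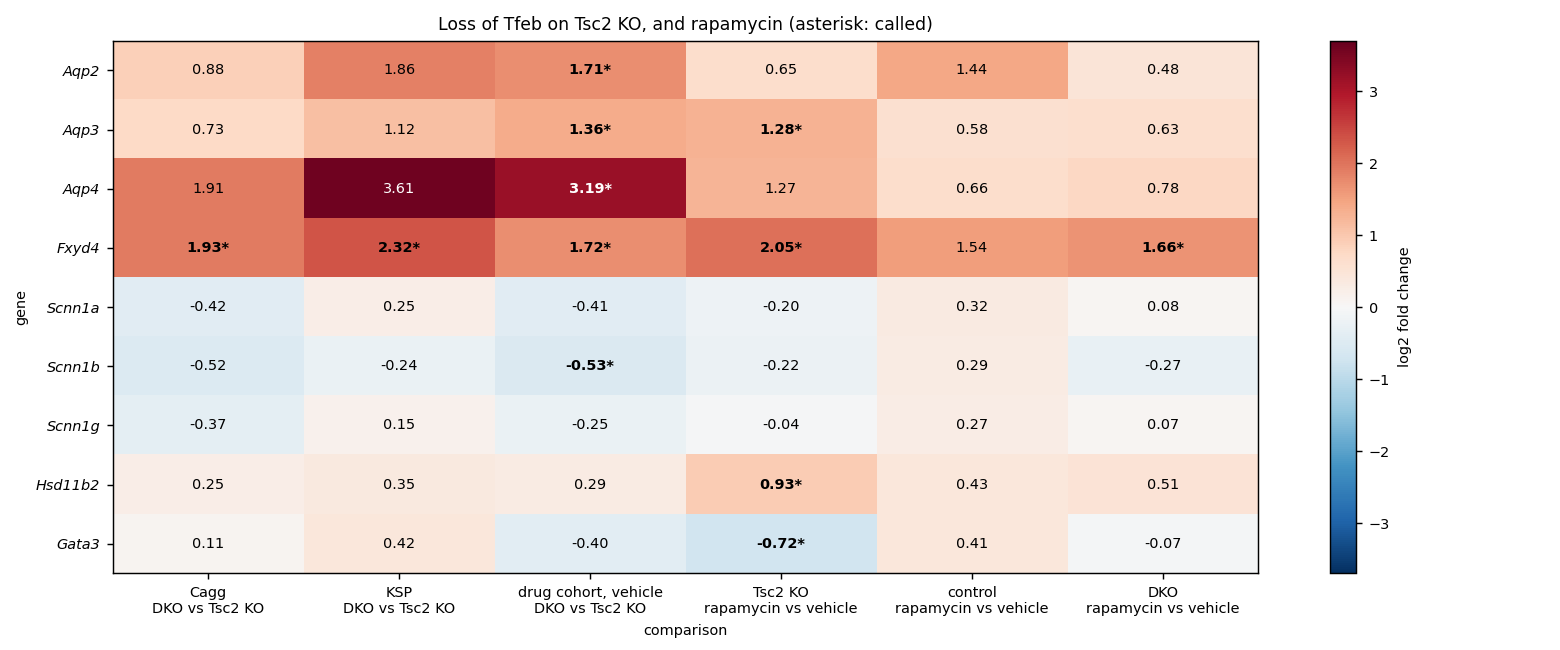
Log2 fold change (colour and number) of each tested principal cell gene in DKO against Tsc2 KO in the 3 cohorts and in rapamycin against vehicle in the 3 genotypes of the drug cohort, from edgeR. An asterisk marks a called gene. Fxyd4, in the DKO against Tsc2 KO comparisons without rapamycin, is marked in all 3 cohorts. With 5 FPKM required in every library it was called in none of them.

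In the drug cohort, rapamycin, an inhibitor of mTORC1, was compared with vehicle in each genotype. In Tsc2 KO kidneys Aqp3, Hsd11b2 and Fxyd4 rose and Gata3 fell, 3 and 1 of 9 genes beside 21.2% and 17.3% of 7997. Aqp3 went from 21.9, 20.7 and 27.0 FPKM with vehicle to 64.0, 40.6 and 63.9 with rapamycin, and Hsd11b2 from 86.8, 109 and 89.3 to 231, 146 and 164. Fxyd4 went from 2.04, 2.95 and 3.11 to 12.3, 3.93 and 17.3, and Gata3 from 8.73, 13.7 and 11.0 to 8.12, 4.2 and 7.96. The groups did not overlap for these 4 genes, which had been picked by their calls. The second rapamycin-treated kidney stayed nearest to vehicle for Aqp3, Hsd11b2 and Fxyd4. The log2 fold change was 1.28 for Aqp3 (SE 0.19, adjusted p = 0.000105), 0.93 for Hsd11b2 (SE 0.20, adjusted p = 0.00228), 2.05 for Fxyd4 (SE 0.43, adjusted p = 0.00207) and -0.72 for Gata3 (SE 0.22, adjusted p = 0.022). With 5 FPKM required in every library Fxyd4, at 2.7 on average with vehicle, and Gata3 were not called. Without the libraries with adrenal cortex RNA, Aqp3 (1.06, adjusted p = 0.0192) and Hsd11b2 (1.02, adjusted p = 0.0228) were called, Fxyd4 (1.85, adjusted p = 0.0586) and Gata3 (-0.70, adjusted p = 0.157) were not called, and Gata3 was also lost without vehicle-treated Tsc2 KO 2 (-0.55, adjusted p = 0.109) or rapamycin-treated Tsc2 KO 2 (-0.47, adjusted p = 0.087). Aqp2 at 172, 92.9 and 341 FPKM and Aqp4 at 2.11, 1.74 and 11.4 with rapamycin overlapped vehicle, and their log2 fold changes of 0.65 (SE 0.41, adjusted p = 0.258) and 1.27 (SE 0.98, adjusted p = 0.361) were not called. Without the libraries with adrenal cortex RNA they were 0.42 (adjusted p = 0.689) for Aqp2 and -0.03 (adjusted p = 0.989) for Aqp4. Scnn1a at -0.20, Scnn1b at -0.22 and Scnn1g at -0.04 were not called either, and without those libraries they were at 0.16, 0.13 and -0.01. With vehicle and rapamycin, 8 proximal tubule genes summed to 482 to 799 and 2489 to 3286 FPKM. For 6 distal convoluted tubule genes the sums were 99.6 to 137 and 162 to 287. The 8 macrophage genes gave 99.4 to 181 and 41.4 to 85.9. Sums of 10 intercalated cell genes overlapped. Rapamycin-treated Tsc2 KO 3, with the highest Aqp2, Aqp4 and Fxyd4, had Slc14a2 at 20.1 FPKM against 3.57 and 0.668. The part of these cell types in the changes was not tested.

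In control kidneys rapamycin gave 0 calls among the 9 genes by edgeR, beside 0% of 7535 genes that rose and 0.0664% that fell. For 4 the unadjusted p was below 0.05, beside 14.5% of the 7535, and DESeq2 called 1, Fxyd4, beside 0.664%. Aqp2 was at 402, 372 and 612 FPKM with rapamycin, Aqp3 at 106, 104 and 105 and Fxyd4 at 29.9, 35.7 and 31.2. All of these lay above the vehicle controls. Their log2 fold changes were 1.44 (SE 0.42, adjusted p = 0.348), 0.58 (SE 0.18, adjusted p = 0.377) and 1.54 (SE 0.41, adjusted p = 0.318). The 6 others lay between 0.27 for Scnn1g and 0.66 for Aqp4. Slc14a2 was also above vehicle in these controls, at 30.6, 22.9 and 28.8 FPKM against 14.9, 16.8 and 6.33. The 5 thin limb and inner medulla genes summed to 89.8 to 97.6 against 40.6 to 71.9. The part of medulla in these control levels was not tested. In DKO kidneys Fxyd4 rose with rapamycin to 26.8, 31.7 and 26.0 FPKM, above all vehicle-treated DKO kidneys, by 1.66 on the log2 scale (SE 0.41, adjusted p = 0.0279), 1 of 9 genes beside 2.73% of 7723 that rose and 4.70% that fell. That call was lost without vehicle-treated DKO 1 (1.32) or DKO 3 (1.64), without rapamycin-treated DKO 1 (1.69), 2 (1.57) or 3 (1.71), and without the libraries with adrenal cortex RNA (1.71, adjusted p = 0.229). The 8 others lay between -0.27 for Scnn1b and 0.78 for Aqp4, and without those libraries between -0.42 for Scnn1b and 1.90 for Aqp4.

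Between genotypes under rapamycin, Aqp3 was the member called. It fell in Tsc2 KO against control by 0.90 (SE 0.18, adjusted p = 0.0369), 1 of 9 genes beside 0.132% of 7555 that fell and 0.688% that rose, and the groups did not overlap. Leaving out control 1 (-0.89), 2 (-0.91) or 3 (-0.89), or Tsc2 KO 2 (-0.71) or 3 (adjusted p = 0.0586), ended the call. Fxyd4 had -1.53 (SE 0.41, adjusted p = 0.12) and Aqp2 -1.19 (SE 0.42, adjusted p = 0.242), with each Tsc2 KO kidney below each control, and the 6 others lay between -2.18 for Aqp4 and 0.41 for Scnn1b. For DKO against Tsc2 KO under rapamycin 0 of 9 were called by edgeR, beside 0.119% higher and 0.278% lower of 7566 genes, while 5 had an unadjusted p below 0.05, beside 11.3% of the 7566, and DESeq2 called 2, beside 2.09%. The log2 fold changes of the 9 genes lay between -0.57 for Scnn1b and 2.70 for Aqp4. Rapamycin-treated Tsc2 KO against vehicle-treated DKO gave 0 calls by edgeR, beside 0.660% and 1.09% of 7725, with 2 at an unadjusted p below 0.05, beside 22.6%, and 1 call by DESeq2, beside 7.73%. The log2 fold change of Aqp3 in that last comparison was -0.09 (SE 0.18, adjusted p = 0.829), and that of Hsd11b2 was 0.63 (SE 0.20, adjusted p = 0.106), the range over the 9 genes being -1.91 for Aqp4 to 0.63. Without the 2 vehicle-treated DKO libraries with adrenal cortex RNA, Aqp3 had -0.39 (adjusted p = 0.724), Hsd11b2 0.45 (adjusted p = 0.69) and Aqp4 -0.79 (adjusted p = 0.852).

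The response to rapamycin was compared between Tsc2 KO and control by an interaction term. Gata3 alone was called, with a difference of -1.13 (SE 0.31, adjusted p = 0.0188), 1 of 9 genes beside 12.5% of 8253 with a lower and 17.2% with a higher response. With rapamycin the control kidneys were at 6.51, 5.62 and 7.1 FPKM, above vehicle, and the Tsc2 KO kidneys were below vehicle. The call was lost without vehicle-treated Tsc2 KO 2 (-0.96, adjusted p = 0.0537) and with 5 FPKM required in every library. It was also lost without the libraries with adrenal cortex RNA (-1.09). Aqp3 had 0.70 (SE 0.26, adjusted p = 0.0693) and Fxyd4 0.51 (SE 0.58, adjusted p = 0.576), and the 6 others lay between -0.79 for Aqp2 and 0.61 for Aqp4, the latter being -0.67 without those libraries. Between DKO and Tsc2 KO the interaction gave 0 calls by edgeR, beside 2.93% higher and 8.11% lower of 8254 genes. There was 1 member at an unadjusted p below 0.05, beside 28.5% of the 8254, and DESeq2 called 0, beside 16.1%. The terms lay between -0.65 for Aqp3 and 0.65 for Gata3, and that of Aqp4 was -0.49 with and 1.93 without those libraries.

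Other genes of the 2 hormone pathways were read from lists. The shares of all genes to set beside each list in the 3 comparisons of Tsc2 KO with control are 23.0% that rose and 15.5% that fell in the CaggCreERT2 cohort, 9.42% and 8.74% in the KspCre cohort, and 23.8% and 24.6% with vehicle. Of 15 mineralocorticoid pathway genes, all tested and 14, 13 and 14 of them reaching the FPKM minimum, 1 rose and 7 fell in CaggCreERT2 Tsc2 KO, 0 and 3 in KspCre Tsc2 KO, and 1 and 7 with vehicle. The median log2 fold change of that list was -0.48, -0.48 and -0.63. Kcnj1, the potassium secretory channel ROMK, fell by 1.37, 1.01 and 1.13 on the log2 scale (adjusted p = 0.000184, 0.0227 and 2.89e-05), Wnk4, a kinase of sodium and potassium transport, by 0.79, 0.73 and 0.63 (adjusted p = 0.00136, 0.00354 and 0.00163), and Nedd4l, the ubiquitin ligase that removes ENaC from the membrane, by 0.45, 0.42 and 0.48 (adjusted p = 0.0206, 0.0322 and 0.00829). Kcnj1 and Wnk4 are also used by other distal segments. Nr3c2, the mineralocorticoid receptor, had log2 fold changes of -0.97, -0.52 and -0.67 (adjusted p = 0.000688, 0.0137 and 0.00126) and did not reach the FPKM minimum in the KspCre cohort. Wnk1, the channel-activating protease gene Prss8 and the sodium pump subunit gene Atp1b1 fell in the CaggCreERT2 and drug cohorts and were not called in the KspCre cohort. With rapamycin 6 of the 15 rose and 1 fell in Tsc2 KO, beside 21.2% and 17.3% of all genes, including Kcnj1 (1.21, adjusted p = 2.78e-05) and Nr3c2 (0.94, adjusted p = 0.000111). Without the 4 libraries with adrenal cortex RNA, Kcnj1 (-1.29, adjusted p = 0.0014), Nedd4l (-0.56, adjusted p = 0.0341), Nr3c2 (-0.82, adjusted p = 0.00796) and Wnk1 (-1.17, adjusted p = 0.00236) were called in vehicle-treated Tsc2 KO, and Wnk4 (-0.57, adjusted p = 0.074), Prss8 (-0.78, adjusted p = 0.0772) and Atp1b1 (-0.64, adjusted p = 0.122) were not. The rapamycin calls of Kcnj1 (1.36, adjusted p = 0.00178) and Nr3c2 (1.09, adjusted p = 0.00264) also held.

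Of 19 genes of vasopressin signalling and vesicle traffic, 15 of which reached the minimum in each cohort, 3 rose and 1 fell, 1 and 0, and 3 and 3 in the same 3 Tsc2 KO comparisons, with medians of -0.01, -0.08 and -0.12. In each comparison and direction this share of the 15 was below that of all genes. Rab11a, a GTPase of recycling vesicles, rose in all 3, by 0.88, 0.66 and 0.65 (adjusted p = 0.000204, 0.00242 and 6.36e-05). Creb3 and Arhgdia rose in the CaggCreERT2 and drug cohorts, the latter calls being lost without the 4 libraries with adrenal cortex RNA (0.21, adjusted p = 0.382, and 0.44, adjusted p = 0.273), while that of Rab11a was not (0.56, adjusted p = 0.00879). Of 14 other collecting duct genes, 9 of which reached the minimum in each cohort, 0 rose and 5 fell, 0 and 2, and 2 and 3. Kcne1, a potassium channel subunit, fell by 1.70, 1.88 and 2.18 (adjusted p = 0.0058, 0.00432 and 2.13e-05) and Apela, a secreted peptide, fell too, with log2 fold changes of -0.95, -2.51 and -2.38 (adjusted p = 0.0195, 0.00253 and 0.0004). Ptges, a prostaglandin E synthase, fell in the CaggCreERT2 and drug cohorts. In the drug cohort without the 4 libraries Kcne1 (-2.31, adjusted p = 0.00464) and Apela (-1.84, adjusted p = 0.0185) were called and Ptges (-0.74, adjusted p = 0.0508) was not.

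Markers of other kidney cell types moved in the same comparisons. Of 8 proximal tubule genes, 8, 5 and 6 fell and 0 rose in Tsc2 KO of the CaggCreERT2, KspCre and vehicle-treated drug cohorts, beside the shares of all genes given above, and the median over the list was -1.86, -1.17 and -2.50 on the log2 scale. Their summed FPKM was 3193 to 3478 in control and 504 to 1266 in Tsc2 KO, 2782 to 3071 and 1073 to 1878, and 2691 to 3042 and 482 to 799. Of 6 distal convoluted tubule genes, 4, 3 and 4 fell and 0, 1 and 1 rose, and they summed to 366 to 414 in control and 79.6 to 207 in Tsc2 KO, 233 to 246 and 92.4 to 142, and 285 to 351 and 99.6 to 137. The 5 thick limb genes summed to 1167 to 1437 in control and 772 to 874 in Tsc2 KO of the CaggCreERT2 cohort, but to 1426 to 1615 and 1977 to 2152 in the KspCre cohort, and the 1177 to 1719 and 1009 to 1941 with vehicle overlapped. Of these 5, 3, 2 and 3 fell and 0, 0 and 1 rose. No gene of these lists was at 0, and the part of these cell types in the levels of the members was not tested.

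Among medullary genes, Slc14a2, a urea transporter of the inner medullary collecting duct and thin limb, was at 18.1, 15.9 and 18.2 FPKM in the CaggCreERT2 controls and 1.32, 3.0 and 1.68 in Tsc2 KO, and it fell by 3.07 on the log2 scale (SE 0.29, adjusted p = 2.16e-05). In the KspCre cohort it was at 8.6, 33.9 and 19.6 in control against 0.0342, 7.39 and 0.199, and with vehicle at 14.9, 16.8 and 6.33 against 0.0158, 1.14 and 4.67, where its log2 fold changes of -3.05 (SE 1.30, adjusted p = 0.152) and -2.71 (SE 1.19, adjusted p = 0.0834) were not called. Without the 4 libraries with adrenal cortex RNA the latter was -1.46 (adjusted p = 0.428). In each cohort the groups did not overlap, and the Tsc2 KO kidney with the highest Slc14a2 was also the one with the highest Aqp4. The summed FPKM of 5 thin limb and inner medulla genes was 61.6 to 68.6 in the CaggCreERT2 controls and 27.3 to 35.2 in Tsc2 KO, 48.3 to 91.3 and 9.57 to 26 in the KspCre cohort, and 40.6 to 71.9 and 8.02 to 24 with vehicle, with 2, 1 and 1 of the 5 called lower and no gene of the list at 0 throughout a group. The share of medulla in each tissue piece is not known, and its part in the levels of Aqp2, Aqp4 and Fxyd4 was not tested.

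The 10 genes of the intercalated cell, the acid-base cell that lies beside the principal cell, summed to 383 to 396 FPKM in the CaggCreERT2 controls and 192 to 389 in Tsc2 KO. KspCre sums were 266 to 312 and 329 to 547, and with vehicle 268 to 344 and 537 to 684. In these 3 comparisons 0 rose and 3 fell, 3 rose and 1 fell, and 4 rose and 3 fell, beside the shares of all genes given above. The sum was thus higher in both KspCre cohorts, in which Scnn1b was also higher in every Tsc2 KO kidney, and whether these are linked was not tested. The 8 macrophage genes summed to 142 to 182 FPKM in CaggCreERT2 Tsc2 KO against 84.6 to 113 in control. The sums were 98.3 to 159.9 against 52.3 to 74.6 in the KspCre cohort, and 99.4 to 181 against 42.2 to 57.4 with vehicle.

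**Figure D5:**
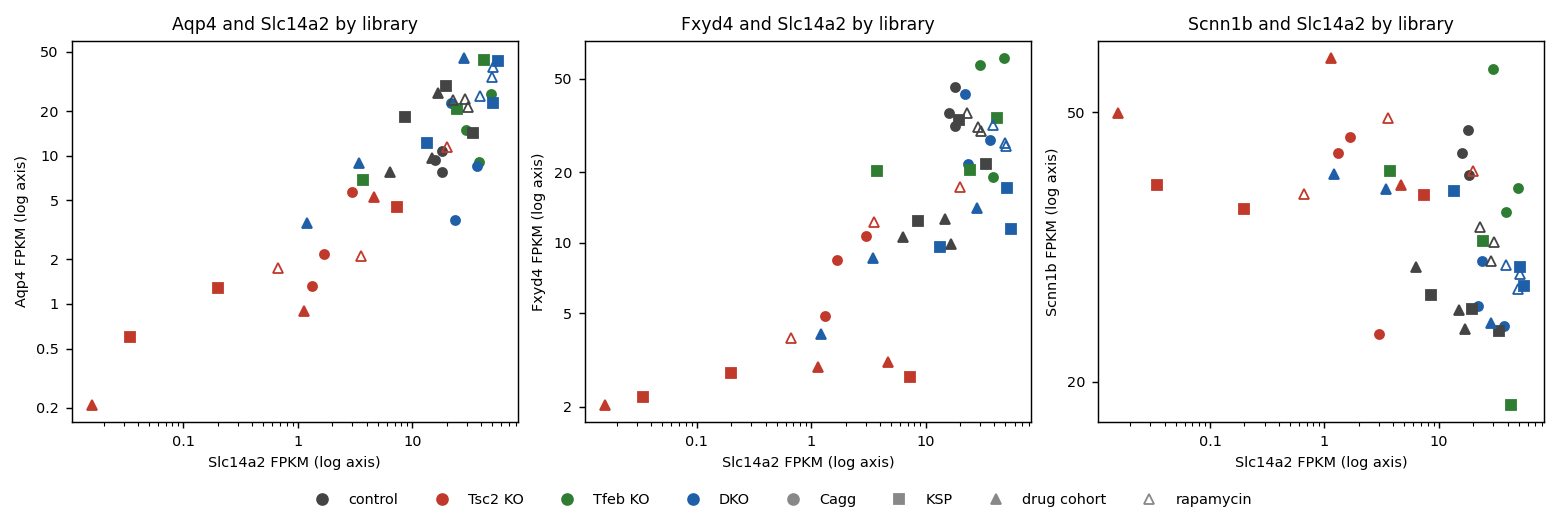
FPKM of the medullary urea transporter Slc14a2 on the x axis against FPKM of Aqp4, Fxyd4 or Scnn1b on the y axis (both log axes), 1 point per library, with colour for the genotype and shape for the cohort. Filled points are untreated or vehicle-treated kidneys and open points rapamycin-treated kidneys. Slc14a2 ranges from 0.0158 FPKM in a vehicle-treated Tsc2 KO kidney to above 50 FPKM.

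The genes whose pattern was most like each member were found from the log2 fold changes of 11 groups against the control of the same cohort, over 15762 genes, by the root mean square difference. The groups of a cohort share their controls, so these values are a description. For Aqp3 the nearest was Tmem150c (0.205), for Fxyd4 Ptger1, a prostaglandin E receptor gene (0.266), for Gata3 Bicdl2 (0.188), for Hsd11b2 Pcyox1l (0.180) and for Aqp2 Nhlrc4 (0.467). Scnn1b was nearest to Kcnq1, a potassium channel gene (0.166), and Rhcg, an ammonia transporter gene (0.167). Among the members themselves the ENaC subunits were closest to each other, Scnn1a to Scnn1g at 0.141, Scnn1b to Scnn1g at 0.286 and Scnn1a to Scnn1b at 0.316, followed by Scnn1b and Gata3 at 0.322. The root mean square of their own log2 fold changes was 0.296 for Scnn1a, 0.474 for Scnn1b and 0.325 for Scnn1g. For the other tested members it was 0.559 to 1.818. Genes that change little are close by this measure whatever their pattern, so this closeness does not show a shared pattern.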

How the data were processed

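Whole kidney RNA was captured by poly-A and sequenced from libraries that do not keep strand. The authors deposited, per cohort, raw counts for each gene. The FPKM values they deposited had been scaled for library size and gene length. Per the submitters' processing notes, STAR 2.6.1d, HISAT2 2.0.5, featureCounts 1.5.0-p3, DESeq2 1.20.0 and mm10 were used, with no role or order given. The depth was 14926050 to 22807605 counts per library. Counts were tested in R 4.3.3 with edgeR 4.0.16 (filterByExpr, TMM, glmQLFit and glmQLFTest, each cohort fitted whole, no covariate), and each comparison was adjusted by Benjamini-Hochberg over the genes it tested. Calls required an adjusted p no higher than 0.05 together with 5 FPKM on average in either group. Differences between effects were interaction terms of the same fit. Standard errors were taken from the log2 fold change and the F statistic.

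The tests were checked on simulated data. Samples were grouped by their labels, and all value columns were mapped to a sample. In the CaggCreERT2 cohort 4 of 12 names differ between the tables and the FPKM names were used, the count names being an alternative. Alternatives were DESeq2 1.42.0, RLE scaling, other filters, only the groups compared, a replicate block and leaving out each library. Xist was used as a covariate in the CaggCreERT2 cohort alone. Leaving out libraries with a summed adrenal cortex FPKM above 10 was added after seeing the data. The members and lists were chosen with earlier results of these data known. The members were named in every comparison, singly or by their range. Of the pathway lists, genes called in the same direction in Tsc2 KO in at least 2 cohorts were named. The labels number 3 replicates a group, and the study describes its replicates as biological. Pairs within a group differed by a chi-square of 16.4 to 87.5 per gene, above counting noise, and CaggCreERT2 Tsc2 KO and DKO each held kidneys of both sexes by Xist. The p-values measure the spread between these kidneys.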

Additional observations from a re-analysis of the deposited data

Results flagged for a closer look

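Gata3 was flagged in 3 values. Its response to rapamycin differed between Tsc2 KO and control kidneys by -1.13 on the log2 scale, by the edgeR interaction term (adjusted p = 0.0188). It was 1 of 9 tested members called, beside 12.5% of all genes with a lower and 17.2% with a higher response. It fell by 0.72 in Tsc2 KO, in 3 of 3 kidneys against vehicle, and was 0.41 higher in control, in 3 of 3 kidneys, the latter not called. With 5 FPKM required in every library neither the difference nor the fall was called. Without the libraries with adrenal cortex RNA the difference was -1.09 (adjusted p = 0.0856) and the fall -0.70 (adjusted p = 0.157), and without vehicle-treated Tsc2 KO 2 the difference was -0.96 (adjusted p = 0.0537), none of them called.

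Gata3 also had opposite differences between Tsc2 KO and control in 2 cohorts, with a log2 fold change of -0.49 in the CaggCreERT2 cohort and 1.20 in the vehicle groups of the KspCre drug cohort, each in 3 of 3 Tsc2 KO kidneys. The difference between these cohorts was not tested. They differ in Cre driver, age, injections and table, which cannot be told apart. The call in the CaggCreERT2 cohort was lost without any 1 of 4 libraries (adjusted p from 0.0662 to 0.107), with Xist as a covariate (adjusted p = 0.0782) and with the names of the count table (adjusted p = 0.0871), while that in the drug cohort held without the libraries with adrenal cortex RNA (1.17, adjusted p = 0.0128). In the untreated KspCre cohort the log2 fold change was 0.33 (adjusted p = 0.403) and not called. With 5 FPKM required in every library Gata3 was called in neither the CaggCreERT2 nor the drug cohort.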

How the results depend on the processing

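Of 33 called values of the members, 10 kept their call in every alternative run. Over 469 alternative values of called members, 363 kept the call, 106 lost it and 0 changed direction. Of 156 values not called, 31 were called under at least 1 alternative. No scaling moved the median of all genes by over 0.1. Where a count moved, the cause was not tested, except that fewer genes can be called under the stricter FPKM minimum and fewer kidneys were compared when libraries were left out. Avpr2, with 0 to 7 counts, entered no test.

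Each count of called members is followed here, in parentheses, by the percentage of all genes reaching the FPKM minimum that were called under the same setting. With DESeq2, the number of members called was 3 (20.7%) for CaggCreERT2 DKO against Tsc2 KO and 4 (19.5%) for DKO against control, 4 (4.45%) for KspCre DKO against Tsc2 KO, 2 (10.4%) for KspCre DKO against control and 2 (1.06%) for the KspCre interaction. In the drug cohort it was 2 (12.4%) for DKO rapamycin against vehicle, 2 (2.09%) for DKO against Tsc2 KO under rapamycin, 2 (14.4%) for DKO against control with vehicle, 1 (7.73%) for rapamycin-treated Tsc2 KO against vehicle-treated DKO, 2 (2.61%) for Tsc2 KO against control under rapamycin, 1 (0.664%) for control rapamycin against vehicle and 2 (34.2%) for the interaction of Tsc2 KO and control. With an FPKM of 5 required in every library it was 3 (34.8% and 14.5%) for Tsc2 KO against control and 0 (12.7% and 0.221%) for DKO against Tsc2 KO in the CaggCreERT2 and KspCre cohorts, and in the drug cohort 3 (43.1%) for Tsc2 KO against control, 3 (25.9%) for DKO against Tsc2 KO, 2 (34.4%) for Tsc2 KO rapamycin against vehicle and 0 for DKO against control (7.06%), DKO rapamycin against vehicle (6.13%) and the interaction (26.5%). Without a filter on low counts it was 5 (18.3%), 5 (17.4%) and 1 (8.05%) for CaggCreERT2 DKO against Tsc2 KO, DKO against control and the interaction, 4 (1.82%) for KspCre DKO against Tsc2 KO, and in the drug cohort 2 (7.94%) for DKO rapamycin against vehicle, 1 (1.20%) for DKO against Tsc2 KO under rapamycin, 2 (8.97%) for DKO against control with vehicle and 2 (1.44%) for Tsc2 KO against control under rapamycin. In Tsc2 KO against control, the stricter FPKM minimum ended the Fxyd4 call in all 3 cohorts. It also ended that of Aqp4 in both KspCre cohorts and that of Gata3 in the CaggCreERT2 and drug cohorts.

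With only the groups compared in the fit it was 5 (24.4%) for CaggCreERT2 DKO against control, 3 (23.2%) for vehicle-treated DKO against Tsc2 KO, 1 (0.0531%) for control rapamycin against vehicle, and 0 for DKO rapamycin against vehicle (8.25%), DKO against control with vehicle (3.07%) and Tsc2 KO against control under rapamycin (0.344%). With the names of the count table it was 0 (0.0127%) for CaggCreERT2 DKO against control. Without the 4 libraries with adrenal cortex RNA, left out after seeing the data, it was 1 (4.60%) for vehicle-treated DKO against Tsc2 KO, 2 (17.6%) for Tsc2 KO rapamycin against vehicle, and 0 for DKO against control with vehicle (1.27%), DKO rapamycin against vehicle (1.42%) and the interaction (14.0%). With the replicate number as a block it was 0 for CaggCreERT2 DKO against control (12.3%), KspCre DKO against Tsc2 KO (0.0130%) and DKO against control with vehicle (8.30%), and 2 (6.64%) for DKO rapamycin against vehicle. The numbers did not pair the kidneys, since deviations of same-numbered kidneys correlated at over 0.1 in 3 of 18, 4 of 18 and 9 of 45 pairs.

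When 1 kidney was left out at a time, the number called ranged from 4 to 5 (CaggCreERT2, 26.9% to 40.8%), 3 to 5 (KspCre, 10.7% to 14.3%) and 4 to 6 (drug cohort, 41.3% to 46.5%) for Tsc2 KO against control, and from 0 to 5 (5.53% to 19.4%), 0 to 1 (0.0128% to 0.276%) and 1 to 5 (21.9% to 28.8%) for DKO against Tsc2 KO. It ranged from 0 to 1 for DKO against control in the CaggCreERT2 cohort (8.17% to 10.5%) and its interaction (0.719% to 7.13%), and from 0 to 2 for DKO against control with vehicle (3.10% to 9.79%). With rapamycin it ranged from 3 to 5 for Tsc2 KO against vehicle (31.2% to 36.8%), from 0 to 1 for DKO against vehicle (2.32% to 6.28%), Tsc2 KO against control (0.158% to 1.09%) and DKO against Tsc2 KO (0.145% to 0.50%), and from 0 to 2 for the interaction of Tsc2 KO and control (22.5% to 32.9%). The lone kidney of a group reduced in this way to 1 was assumed to vary like the other groups.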

Other observations

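Sgk1, the aldosterone-induced kinase that keeps ENaC at the membrane, rose by 0.91 (SE 0.31, adjusted p = 0.0417) in CaggCreERT2 Tsc2 KO, and its log2 fold change was 0.31 (SE 0.54, adjusted p = 0.766) in KspCre Tsc2 KO and -0.84 (SE 0.47, adjusted p = 0.169) in vehicle-treated Tsc2 KO of the drug cohort, which became -0.46 (adjusted p = 0.708) without the 4 libraries with adrenal cortex RNA. Tfcp2l1, a transcription factor of the distal tubule and collecting duct, had log2 fold changes of -0.19 (SE 0.14, adjusted p = 0.351) in CaggCreERT2 Tsc2 KO and 0.47 (SE 0.17, adjusted p = 0.0868) in KspCre Tsc2 KO, which were not called. It rose by 0.83 (SE 0.17, adjusted p = 0.00095) in vehicle-treated Tsc2 KO, also without the 4 libraries with adrenal cortex RNA (0.60, adjusted p = 0.0308), and fell by 0.59 (SE 0.17, adjusted p = 0.0178) in vehicle-treated DKO against Tsc2 KO, where the call was lost without them (-0.22, adjusted p = 0.761). Sgk1 and Tfcp2l1 were named here after their values were seen.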
